A study of Mus musculus with 4 samples.

Results

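The genes described here encode the nuclear subunits of the mitochondrial oxidative phosphorylation system and some of the factors that assemble it. Probe sets were taken where the gene symbol began with Nduf, Cox4, Cox5, Cox6, Cox7, Cox8, Uqcr or Atp5, or was Sdha, Sdhb, Sdhc or Sdhd. This found 187 of the 45101 probe sets on the array, of which 179 carried 1 gene symbol and belonged to 90 genes, and 8 were listed for several genes. Of the 90 genes, 86 had at least 1 probe set whose signal reached the array's median on 1 or more arrays, and these 86 are called the oxidative phosphorylation genes below. They comprised 33 subunits of complex I, 4 of complex II, 8 of complex III, 14 of complex IV, 17 of complex V, 8 assembly factors of complex I, and Cox7a2l and Ndufa4l2. The 4 genes that did not reach the median were Ndufb4, Cox4i2, Cox8b and Cox7b2, with signals between 1.53 and 86.5.

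Oxidative phosphorylation couples the oxidation of NADH and succinate to ATP synthesis at the inner mitochondrial membrane. Complexes I, III and IV pass electrons toward oxygen and pump protons, complex II feeds electrons in from succinate, and complex V, the ATP synthase, uses the proton gradient. In the small intestine the absorptive epithelium is known for many mitochondria, which supply ATP for ion pumping and nutrient uptake, and the muscle layers also contain them. A small number of subunits of complexes I, III, IV and V are encoded by mitochondrial DNA. The rule takes in only nuclear genes, so those subunits were not measured here.

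The data are 4 Affymetrix mouse expression arrays, 1 for each group of mice. CF + lubiprostone were Cftr null mice (Cftr tm1UNC, CF) given lubiprostone, CF control were CF mice without the drug, WT + lubiprostone were wild type mice given lubiprostone, and WT control were wild type mice without it. All 4 groups were C57BL/6 mice (C57BL/6J in the methods) reared on the liquid diet Peptamen, which the CF mice need to avoid intestinal obstruction. Lubiprostone, a drug believed to enhance fluid secretion, was gavaged at 10 µg/kg/day for 2 weeks. The authors call its mechanism of action controversial. The ages of the mice are not given in the sources used here. Total RNA of the entire small intestine, with the mesentery trimmed away, was pooled in equal amounts from 8 CF + lubiprostone, 10 CF control, 7 WT + lubiprostone and 8 WT control mice according to the methods, whereas the array record gives 10 mice for WT control. Cftr is disrupted in every cell type of the CF mice, and whole tissue was used, so the arrays do not separate epithelial from other cells.

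With 1 pool and 1 array per group there is no replicate error to hold a difference against, and nothing below was tested. The signal of a probe set is an intensity in arbitrary units, derived from all its probes and scaled by the authors to a trimmed mean of 500.003 on every array. A gene's signal is the geometric mean of its probe sets that reached the median, and its log2 ratio is the mean of their log2 ratios. Signals of different probe sets do not compare amounts of RNA between genes. A gene is called bright when its mean signal over the 4 arrays was at least 474, the mean 75th percentile of the arrays. Of the 86 oxidative phosphorylation genes 78 were bright, and of all 12259 genes that reached the median 5395 were. The label of small intestine fits the markers: 6 of 6 epithelial markers on the array were detected, among them Vil1, Fabp2 and Alpi. Their summed signal was 129038 in CF + lubiprostone, 123772 in CF control, 156670 in WT + lubiprostone and 140288 in WT control.

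Promoters are printed for a few members whose values recur below, because the transcription factors NRF-1, the ETS factor GABP (NRF-2) and YY1 are known to act on the promoters of respiratory chain genes. Each sequence is the sense strand from RefSeq on GRCm38.p6, from 250 bases before to 50 bases after the gene's start, with matches to the NRF-1 motif (GCGCA, any base, GCGC) or the ETS motif (CCGGAAG) on either strand in capitals. An ETS match on the other strand reads CTTCCGG. Atp5k and Uqcr11 were the bright genes of complexes V and III with the lowest ratio of CF + lubiprostone over CF control, Cox6a1 and Sdha hold several NRF-1 matches, and Cox7a1, the lowest of all members in CF + lubiprostone over WT + lubiprostone, holds none of the motifs searched.
Atp5k, chr5:108434350-108434649, minus strand: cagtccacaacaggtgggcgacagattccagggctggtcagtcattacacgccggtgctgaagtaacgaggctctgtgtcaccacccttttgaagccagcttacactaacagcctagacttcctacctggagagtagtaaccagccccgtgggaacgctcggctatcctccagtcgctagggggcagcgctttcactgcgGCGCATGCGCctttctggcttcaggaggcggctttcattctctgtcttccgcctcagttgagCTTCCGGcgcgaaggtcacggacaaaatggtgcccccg
Uqcr11, chr10:80406772-80407071, minus strand: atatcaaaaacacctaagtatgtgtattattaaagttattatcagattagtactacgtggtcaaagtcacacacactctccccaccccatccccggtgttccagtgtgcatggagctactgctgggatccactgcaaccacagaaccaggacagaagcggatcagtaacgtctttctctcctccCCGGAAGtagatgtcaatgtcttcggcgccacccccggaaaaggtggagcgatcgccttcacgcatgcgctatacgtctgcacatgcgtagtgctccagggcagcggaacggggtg
Cox6a1, chr5:115348909-115349208, minus strand: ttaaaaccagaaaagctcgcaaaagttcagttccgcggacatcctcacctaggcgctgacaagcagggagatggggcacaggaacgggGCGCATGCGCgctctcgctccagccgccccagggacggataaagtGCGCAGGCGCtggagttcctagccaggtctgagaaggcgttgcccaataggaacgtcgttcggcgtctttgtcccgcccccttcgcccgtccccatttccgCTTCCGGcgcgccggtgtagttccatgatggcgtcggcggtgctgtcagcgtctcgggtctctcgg
Sdha, chr13:74350191-74350490, minus strand: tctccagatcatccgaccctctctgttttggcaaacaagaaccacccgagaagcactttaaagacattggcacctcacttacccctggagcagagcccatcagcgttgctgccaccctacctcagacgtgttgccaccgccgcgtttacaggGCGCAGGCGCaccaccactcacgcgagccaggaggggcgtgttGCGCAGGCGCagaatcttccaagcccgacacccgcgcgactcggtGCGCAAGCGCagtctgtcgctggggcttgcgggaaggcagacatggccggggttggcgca
Cox7a1, chr7:30183921-30184220, plus strand: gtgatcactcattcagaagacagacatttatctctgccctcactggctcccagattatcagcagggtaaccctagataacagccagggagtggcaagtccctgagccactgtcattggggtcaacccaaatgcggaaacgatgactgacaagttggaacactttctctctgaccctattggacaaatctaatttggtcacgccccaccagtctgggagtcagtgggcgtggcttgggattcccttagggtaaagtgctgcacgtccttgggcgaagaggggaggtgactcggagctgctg

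Over all members, oxidative phosphorylation transcripts were highest in the CF control intestine and lowest in the CF + lubiprostone intestine. The median signal of the 86 genes was 5657 in CF + lubiprostone, 7157 in CF control, 6327 in WT + lubiprostone and 6097 in WT control. The share of the array's summed signal was taken over all 179 probe sets of the rule with 1 gene symbol. It was 3.60% in CF + lubiprostone, 4.24% in CF control, 3.85% in WT + lubiprostone and 3.78% in WT control. The CF control array gave the highest signal for 62 of the 86 genes (72.1%), against 32.7% of all bright genes. The CF + lubiprostone array gave the lowest signal for 48 (55.8%), against 26.8% of bright genes, and WT control the lowest for 30 (34.9%), against 26.8% of bright genes. In bulk tissue, fewer cells of a type and less RNA per cell cannot be told apart.

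**Figure D1:**
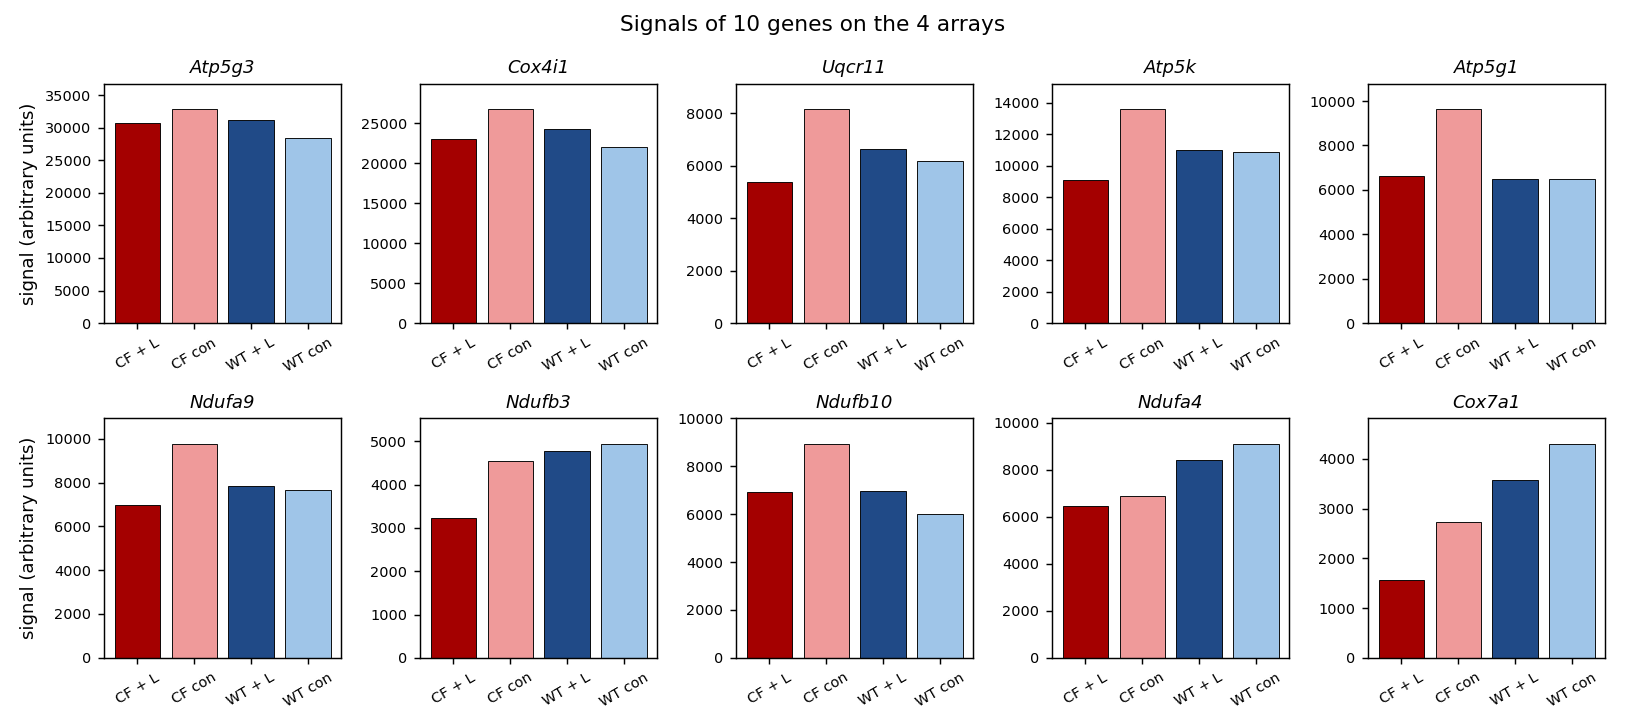
Signals (arbitrary units, linear axis from 0) of 10 oxidative phosphorylation genes on the 4 arrays, with 1 bar per array and no error bars because each group is 1 pool; CF + L and WT + L are the lubiprostone groups and con the controls. Atp5g3 and Cox4i1 differed little between arrays, Uqcr11, Atp5k, Atp5g1, Ndufa9 and Ndufb10 were highest in CF control, and Cox7a1 was lowest in CF + lubiprostone, at 1558.

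In CF control against WT control, the comparison that asks what the loss of Cftr does without treatment, most members were slightly higher. Of the 86 genes 72 were higher and 14 lower, where 47.7% of all 12259 genes and 53.3% of bright genes were higher. The median log2 ratio was 0.20 (a ratio of 1.15), against -0.02 for all genes and 0.03 for bright genes. The differences were small: no member was higher by 1.5-fold or more (7.95% of the genes that could be counted were) and 2 were lower by that much (11.8% of genes), Cox7a1 and Cox6b2. No member passed 3-fold, the threshold of the study's methods, in any of the 4 comparisons. Of all genes, 1.16% were higher and 1.82% lower by 3-fold between CF control and WT control. For the drug in CF mice 0.941% were higher and 0.738% lower, for the drug in WT mice 0.488% were higher and 0.573% lower, and between the genotypes on the drug 1.27% were higher and 1.25% lower.

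In CF + lubiprostone against CF control, which asks what the drug did in the CF intestine, nearly all members were lower. Of the 86 genes 79 were lower and 7 higher, where 48.2% of all genes and 52.5% of bright genes were lower. The median log2 ratio was -0.22 (a ratio of 0.858), against 0.02 for all genes and -0.02 for bright genes. By 1.5-fold or more 3 genes were lower (6.43% of all genes were) and none was higher (9.43%). Those 3 were Ndufa10, Cox7a1 and Uqcr11. Ndufa10 passed 1.5-fold through a dim probe set, and its bright one gave -0.21. The 2 comparisons share the CF control array, so a high or low value on that array enters both with opposite signs.

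In WT + lubiprostone against WT control the members moved little. The median log2 ratio was 0.05, with 55 genes higher and 31 lower, where 49.4% of all genes and 51.8% of bright genes were higher. A direction cannot be given, because the median was -0.02 after quantile normalization and -0.03 when the ratios were centred on genes of like signal. By 1.5-fold or more 1 gene was higher (4.46% of all genes), Atp5g2, and 1 lower (5.07%), Cox8c, and in each of them a dim probe set carried the ratio.

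In CF + lubiprostone against WT + lubiprostone, the comparison of the genotypes under treatment, 63 members were lower and 23 higher, where 50% of all genes and 49.4% of bright genes were lower. The median log2 ratio was -0.09, against 0.00 for all genes. By 1.5-fold or more 4 genes were lower (8.86% of all genes) and 1 was higher (8.22%). The 4 lower genes were Cox7a1, Cox6b2, Ndufa10 and Atp5g2, and the higher gene was Ndufb1. Cox6b2 and Ndufb1 were not bright. In Ndufa10 and Atp5g2 a dim probe set carried the ratio, at -1.27 and -1.22, and the bright one gave -0.011 and 0.028. The dim probe set of Atp5g2 reached the array's median only in WT + lubiprostone.

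**Figure D2:**
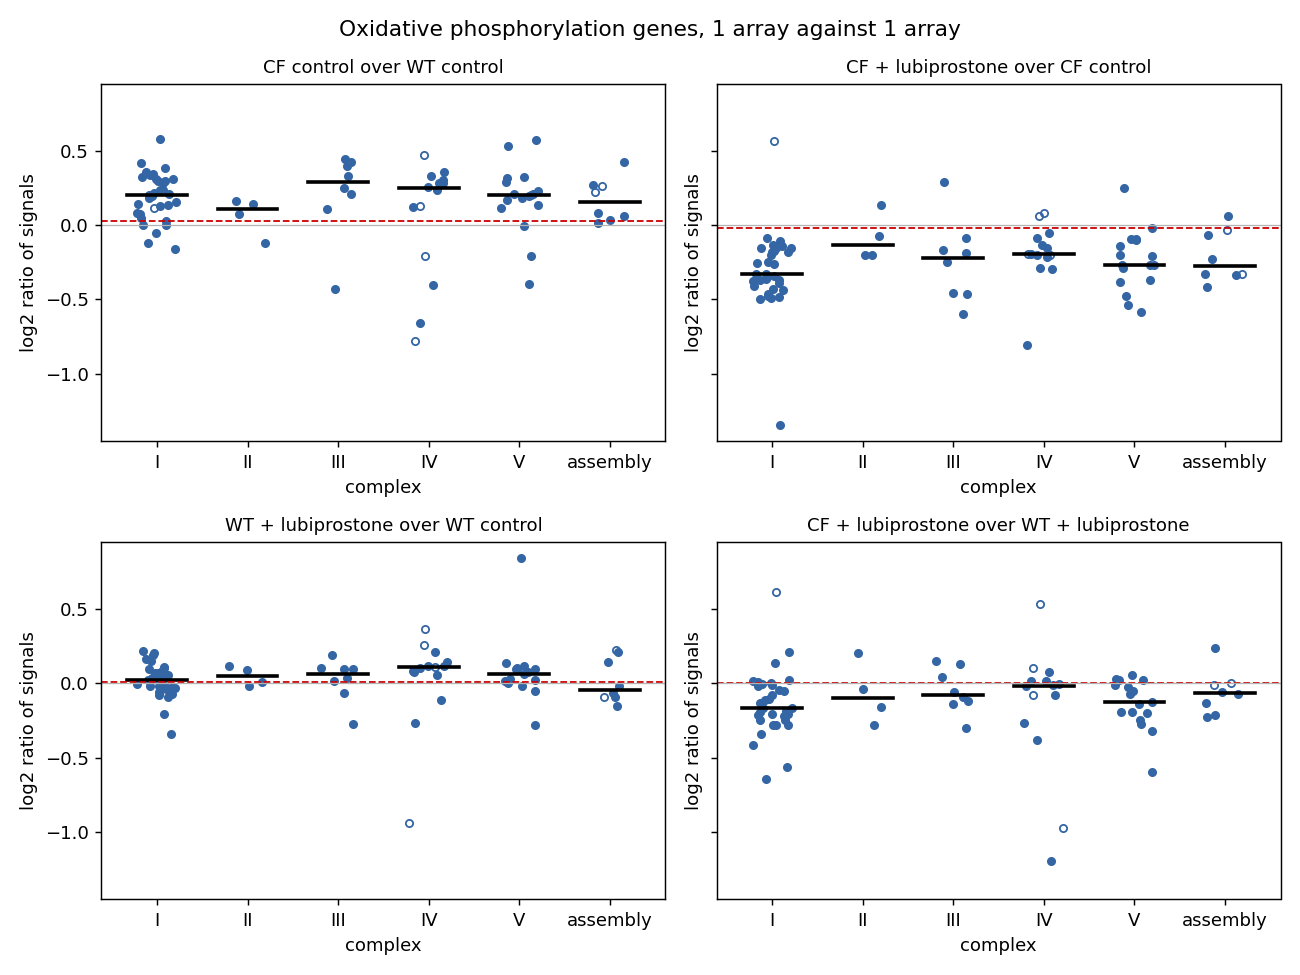
Log2 ratio of signals for each oxidative phosphorylation gene, grouped by complex, in the 4 comparisons; filled points are bright genes, open points the others, black bars the median of each group and the red dashed line the median of all bright genes. In CF + lubiprostone over CF control 32 of 33 complex I genes lie below 0, whereas in WT + lubiprostone over WT control the points lie around 0.

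The arrays themselves differ in a way that moves bright genes together, so members were set beside other genes of like signal. Among genes with a mean signal of 10000 or more, the median log2 ratio of CF control over WT control was 0.22 for 26 members, with 25 of 26 higher, and 0.18 for 171 other genes, with 65.5% higher. Among genes between 5000 and 10000 the medians were 0.24 for 23 members, with 21 of 23 higher, and 0.03 for 280 others, with 54.6% higher. For the drug in CF, other genes of these levels had medians near 0. The medians at 10000 or more were -0.20 for the members, with 26 of 26 lower, and 0.03 for the others, with 40.4% lower. Between 5000 and 10000 they were -0.33 for the members, with 23 of 23 lower, and -0.05 for the others, with 54.6% lower. After quantile normalization the median for CF control over WT control was 0.10 for all members and 0.037 for all genes. For the drug in CF it was -0.21 for all members and -0.023 for all genes.

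**Figure D3:**
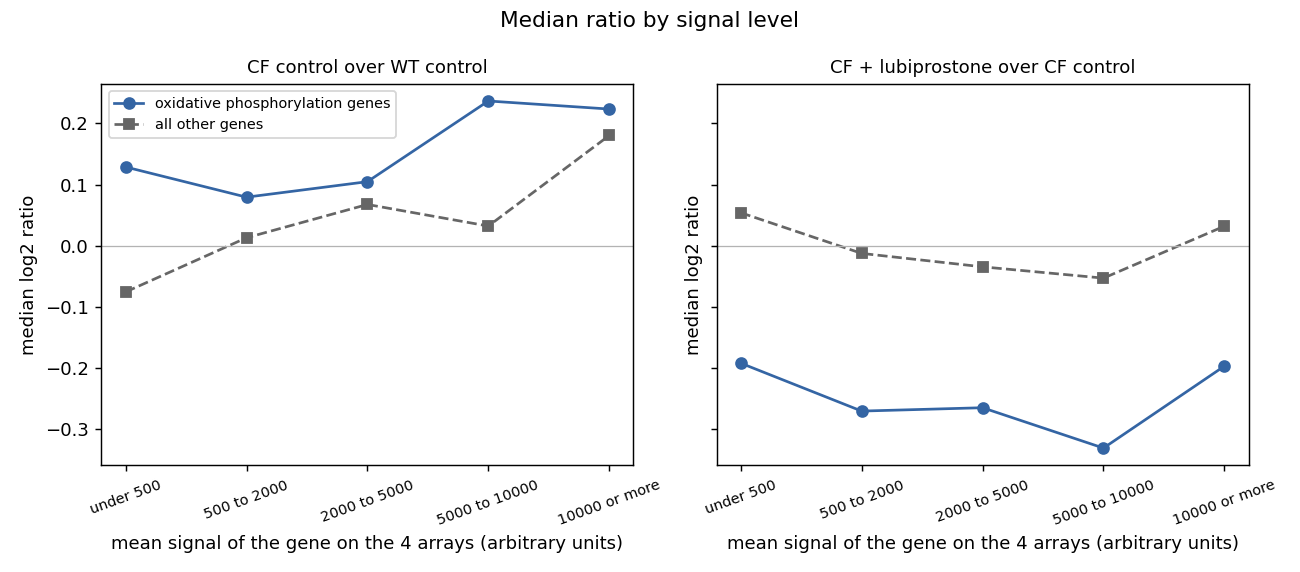
Median log2 ratio of oxidative phosphorylation genes (circles) and of all other genes (squares) in 5 bands of mean signal (arbitrary units), for CF control over WT control on the left and CF + lubiprostone over CF control on the right. At 10000 or more the circles and squares nearly meet on the left, at 0.22 and 0.18, and stay apart on the right, at -0.20 and 0.03.

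Several probe sets of a gene give a check within the arrays, since they read different stretches of the transcript, although they share the pool and the hybridization. Among the 163 member probe sets that reached the median, 138 were bright, and 135 of these were below CF control on the CF + lubiprostone array, against 51.1% of 9997 other bright probe sets. On the CF control array 126 of the 138 were above WT control, against 54.4%. The 25 dimmer probe sets showed no such lean, with 12 lower for the drug in CF and 14 higher between the control arrays. The 8 probe sets listed for several genes, for example for Ndufa11 and Ndufa11b or for Ndufs6 and Ndufs6b, were not used in the counts of genes, and on the CF + lubiprostone array 8 of 8 fell below CF control. Of the 86 genes 48 had more than 1 probe set. The SD of the log2 ratio between probe sets of the same gene had a median of 0.10 for CF control over WT control and 0.12 for the drug in CF, which is spread within arrays and not between mice.

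Complex I, the NADH dehydrogenase, had the lowest median ratio of the 5 complexes in CF + lubiprostone over CF control. Of its 33 genes 32 were lower, with a median log2 ratio of -0.33. The 3 brightest genes of the complex, Ndufa1, Ndufa13 and Ndufb9, had -0.15, -0.17 and -0.13. CF control exceeded WT control for 29 of 33, with a median of 0.20, and CF + lubiprostone lay below WT + lubiprostone for 26 of 33, with a median of -0.16. The WT lubiprostone comparison had 17 higher and 16 lower. Ndufb10, an accessory subunit of the membrane arm, had signals of 6914 in CF + lubiprostone, 8932 in CF control, 6966 in WT + lubiprostone and 5992 in WT control. It was the highest of complex I in CF control over WT control, at a log2 ratio of 0.58. Ndufb3, another subunit of the membrane arm, behaved otherwise, with 3240 in CF + lubiprostone, 4542 in CF control, 4775 in WT + lubiprostone and 4939 in WT control. Only the CF + lubiprostone signal stood apart there, with a log2 ratio of -0.49 over CF control and -0.56 over WT + lubiprostone. Ndufa5, of the peripheral arm, had the same order, with 3984 in CF + lubiprostone, 5218 in CF control, 5319 in WT + lubiprostone and 5418 in WT control.

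The catalytic core of complex I was lower along with its accessory subunits. Ndufs1, which carries iron-sulfur clusters of the electron path, had 3410 in CF + lubiprostone, 4709 in CF control, 3743 in WT + lubiprostone and 3799 in WT control, a log2 ratio of -0.47 in CF + lubiprostone over CF control. Ndufv1, which binds NADH and the flavin, had 5911 in CF + lubiprostone, 6808 in CF control, 6387 in WT + lubiprostone and 5935 in WT control (log2 ratio -0.20). Ndufv2 had 8922 in CF + lubiprostone, 11217 in CF control, 8871 in WT + lubiprostone and 8382 in WT control (log2 ratio -0.33). In these 3 core genes, picked out after their values were seen for their roles, CF control was the highest of the 4 arrays. Ndufs8, a core subunit with 6 probe sets, shows what the averaging can hide: 5 of them had log2 ratios between -0.77 and -0.55 in CF + lubiprostone over CF control, while the dimmest had signals of 509 in CF + lubiprostone, 254 in CF control, 203 in WT + lubiprostone and 255 in WT control, and was higher. The mean over the 6 was -0.36.

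Ndufa10, an accessory subunit, had the lowest ratio of all members in CF + lubiprostone over CF control, at a log2 ratio of -1.34, and its 2 probe sets disagree on the size. The bright probe set had 7379 in CF + lubiprostone, 8541 in CF control, 7436 in WT + lubiprostone and 6495 in WT control, a log2 ratio of -0.21. The dim probe set had 25.5 in CF + lubiprostone, 142 in CF control, 61.7 in WT + lubiprostone and 114 in WT control, below the array's median on every array but CF control. The gene's place at the bottom of the list rests on the dim probe set. Ndufab1, the mitochondrial acyl carrier protein that is also a complex I subunit, had log2 ratios of -0.47 and -0.40 at its 2 brighter probe sets and between -0.67 and 0.02 at 3 dim ones. Ndufb1 was the only complex I gene above CF control on the CF + lubiprostone array, with 339 in CF + lubiprostone, 229.5 in CF control, 222 in WT + lubiprostone and 212 in WT control at its 1 dim probe set.

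The 8 assembly factors of complex I (Ndufaf1 to Ndufaf8), which help build the complex and are not part of the finished enzyme, leaned the same way as the subunits. CF control exceeded WT control for all 8, at a median log2 ratio of 0.15, and CF + lubiprostone was below CF control for 7, at a median of -0.28. Ndufaf4 had 1065 in CF + lubiprostone, 1342 in CF control, 903 in WT + lubiprostone and 1003 in WT control, so that both CF arrays lay above both WT arrays. At its dimmer probe set, however, CF + lubiprostone, at 671, lay below WT control, at 761. Ndufaf2 was the exception in the drug comparison, with 553 in CF + lubiprostone, 530.2 in CF control, 579.9 in WT + lubiprostone and 526 in WT control, differences that are small on every side.

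Complex II, succinate dehydrogenase, which also works in the citric acid cycle, had the medians nearest to 0 of the 5 complexes in 2 of the comparisons. Its 4 genes had a median log2 ratio of 0.11 between the control arrays, CF over WT, and of -0.13 for the drug in CF, where the brightest probe set of each gene gave -0.32. Sdhb, the iron-sulfur subunit, had 14125 in CF + lubiprostone, 16264 in CF control, 15760.3 in WT + lubiprostone and 14539 in WT control. Sdhc, a membrane anchor, had 4182 in CF + lubiprostone, 4798 in CF control, 4286 in WT + lubiprostone and 4347 in WT control. In both genes CF control was highest and CF + lubiprostone lowest. At the dimmer probe set of Sdhc, however, WT + lubiprostone was lowest, at 2251, with CF + lubiprostone at 2417. Sdha, the catalytic flavoprotein, whose promoter above holds 3 NRF-1 matches, was lowest in CF + lubiprostone at 3081, with 3237 in CF control, 3742 in WT + lubiprostone and 3517 in WT control. Between the control arrays, CF over WT, its 2 bright probe sets gave log2 ratios of 0.14 and 0.067, and a dim one gave -0.57. For the drug in CF the bright ones gave -0.31 and -0.24, and the dim one gave 0.33. Sdhd, the other membrane anchor, split likewise: its brighter probe set had 8084 in CF + lubiprostone, 10177 in CF control, 8716 in WT + lubiprostone and 8646 in WT control (log2 ratio -0.33), and its other one had 2349 in CF + lubiprostone, 1543 in CF control, 1646 in WT + lubiprostone and 1641 in WT control (log2 ratio 0.61). The averaged ratio of 0.14, which counts Sdhd among the 7 higher members, rests on that second probe set.

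Complex III, the cytochrome bc1 complex, had the highest median of the 5 complexes in CF control over WT control, at a log2 ratio of 0.29 with 7 of 8 genes higher. With the drug in CF 7 of 8 were lower, with a median of -0.22. The 3 brightest genes of the complex, Uqcrb, Uqcrc2 and Uqcrh, had -0.18, -0.17 and -0.25. Uqcr11, a small subunit, had 5388 in CF + lubiprostone, 8147 in CF control, 6622 in WT + lubiprostone and 6187 in WT control. This is a log2 ratio of -0.60 for the drug in CF, and the CF + lubiprostone signal was also the lowest of the 4. Uqcrfs1, the Rieske iron-sulfur protein, had 10433 in CF + lubiprostone, 14345 in CF control, 11317 in WT + lubiprostone and 10554 in WT control, so that only CF control stood apart. Uqcrc1, a core protein, had 14307 in CF + lubiprostone, 15194 in CF control, 12903 in WT + lubiprostone and 11309.5 in WT control. Here both CF arrays were above both WT arrays, and the log2 ratio was 0.43 without and 0.15 with the drug. Uqcrq was the only gene of complex III on the other side in both comparisons, with mean log2 ratios of -0.43 and 0.29. Its bright probe set had 6883 in CF + lubiprostone, 8177 in CF control, 8012 in WT + lubiprostone and 7667 in WT control, and gave 0.09 and -0.25, so the direction of the mean comes from the dim probe set.

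Complex IV, cytochrome c oxidase, held the member with the lowest ratio of CF + lubiprostone over WT + lubiprostone. Cox7a1, the isoform of subunit VIIa known from heart and skeletal muscle, had 1558 in CF + lubiprostone, 2719.9 in CF control, 3568 in WT + lubiprostone and 4297 in WT control. Both CF arrays lay below both WT arrays, and within each genotype the lubiprostone array lay below its control. The log2 ratio of CF over WT was -1.20 with the drug and -0.66 without it, and that of lubiprostone over control was -0.80 in CF and -0.27 in WT. It rests on 1 probe set. Cox7a2, the isoform found in most tissues, had 21916 in CF + lubiprostone, 25056 in CF control, 21970.3 in WT + lubiprostone and 20290 in WT control, the pattern of the other members and the reverse of Cox7a1 in CF control over WT control. Cox7a2l, which takes part in joining complexes III and IV, had 4505 in CF + lubiprostone, 4869 in CF control, 4212 in WT + lubiprostone and 3749.7 in WT control.

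The other subunits of complex IV with bright probe sets moved within narrow limits. Cox4i1, the subunit IV isoform of most tissues, had 23068 in CF + lubiprostone, 26779.7 in CF control, 24352 in WT + lubiprostone and 22064 in WT control. Cox5a had 22595 in CF + lubiprostone, 25951 in CF control, 21394 in WT + lubiprostone and 20279.7 in WT control, and Cox6a1, with its 2 NRF-1 matches, had 23179.8 in CF + lubiprostone, 25853 in CF control, 22974 in WT + lubiprostone and 21221 in WT control. CF control was the highest in each, by a log2 ratio of 0.28 to 0.36 over WT control, and CF + lubiprostone was lower than CF control by a log2 ratio between -0.22 and -0.16. Over the 14 genes of the complex, CF control was above WT control for 10 (median log2 ratio 0.25), and CF + lubiprostone was below CF control for 12 (median -0.19). Between CF + lubiprostone and WT + lubiprostone the median was -0.016, and it was 0.020 when each array was scaled to the same median. Ndufa4, first described as part of complex I and now placed in complex IV, went with Cox7a1 in part: it had 6464 in CF + lubiprostone, 6878 in CF control, 8399 in WT + lubiprostone and 9094 in WT control, with both CF arrays below both WT arrays.

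The tissue-restricted isoforms of complex IV gave only dim signals, apart from Cox7a1. Cox6a2, the muscle isoform of subunit VIa, had 137 in CF + lubiprostone, 156 in CF control, 145 in WT + lubiprostone and 113 in WT control. Cox6b2, known from testis, had 149 in CF + lubiprostone, 143 in CF control, 293 in WT + lubiprostone and 246 in WT control. Its log2 ratios of CF over WT, -0.97 with the drug and -0.78 without it, come from CF signals near the array medians of 109 to 124. Cox8c, also a testis isoform, had probe sets that disagreed, with log2 ratios of -1.14 and 0.74 in CF + lubiprostone over CF control. Ndufa4l2, a paralog of Ndufa4 known to respond to hypoxia, had 139 in CF + lubiprostone, 169 in CF control, 188 in WT + lubiprostone and 219 in WT control.

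Complex V, the ATP synthase, had 16 of 17 genes lower for the drug in CF, at a median log2 ratio of -0.27, and 14 of 17 higher in CF control against WT control, at a median of 0.20. The 3 genes Atp5g1, Atp5g2 and Atp5g3 encode the same mature protein, the c subunit of the rotating ring, and their ratios differed. Atp5g1 had 6633 in CF + lubiprostone, 9631 in CF control, 6498 in WT + lubiprostone and 6495 in WT control. CF control stood alone, with log2 ratios of 0.57 over WT control and -0.54 for CF + lubiprostone over CF control, and the other 3 arrays were nearly equal. Atp5g3 had 30691 in CF + lubiprostone, 32848.5 in CF control, 31227 in WT + lubiprostone and 28448 in WT control, a far narrower range, with log2 ratios of 0.21 and -0.10 in those comparisons. The bright probe set of Atp5g2 had 7314 in CF + lubiprostone, 8127 in CF control, 7174 in WT + lubiprostone and 6247 in WT control. Its dim probe set, between 45.7 and 128, gave the gene a log2 ratio of 0.84 in WT + lubiprostone over WT control, where the bright one gave 0.20.

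The catalytic beta subunit of the synthase was among the members that differed least. Atp5b had 27510.5 in CF + lubiprostone, 27918 in CF control, 26499 in WT + lubiprostone and 24851 in WT control, a log2 ratio of -0.021 for the drug in CF. Atp5k, the e subunit, which holds synthase dimers together, had the lowest ratio of the 17 for the drug in CF, with 9071 in CF + lubiprostone, 13591 in CF control, 10976 in WT + lubiprostone and 10875 in WT control. Its log2 ratio in CF + lubiprostone over CF control was -0.58, and its 3 probe sets gave -0.67, -0.60 and -0.48. Other small subunits of the membrane part, Atp5l (g subunit) and Atp5mpl, had log2 ratios of -0.37 and -0.38, and Atp5e, the epsilon subunit of the stalk, -0.48; these 3 were picked out after their values were seen. Atp5md, also a small membrane subunit, was 1 of the 3 genes of complex V, with Atp5c1 and Atp5j2, whose CF control signal lay below WT control. Atp5md had 10391 in CF + lubiprostone, 12518 in CF control, 11939 in WT + lubiprostone and 14491 in WT control, with WT control the highest. In Atp5c1 and Atp5j2 only a dim probe set was lower in CF control over WT control, at log2 ratios of -0.88 and -0.56. Their bright probe sets were higher, at 0.096 for Atp5c1 and at 0.22 and 0.31 for Atp5j2. Atp5c1, the gamma subunit, is counted as higher for the drug in CF at a mean log2 ratio of 0.25, although its bright probe set had 19009.9 in CF + lubiprostone, 22494 in CF control, 21487 in WT + lubiprostone and 21048 in WT control (log2 ratio -0.24) and only a dim one was higher.

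Of the 7 members above CF control on the CF + lubiprostone array, then, Sdhd, Uqcrq and Atp5c1 had their brighter probe set lower, Ndufb1, Cox6b2 and Cox7c were dim, and Ndufaf2 differed by a log2 ratio of 0.06. With the brightest probe set of each gene, 81 of 86 were lower and 5 higher. The genotype ratios with and without the drug come from different arrays and can be set against each other: over the 86 genes the log2 ratios of CF over WT with the drug and without it had the same sign in 33, with r = 0.44 and rho = 0.36 across genes. For the 78 bright members r was 0.44 and rho 0.40, and for the 77 without Cox7a1 they were 0.26 and 0.38. For 5317 bright genes outside the list, from which no gene was left out, r was 0.72 and rho 0.56. The r values are not like for like, because the bright members' ratios spread less. Without the drug the SD of the log2 ratio was 0.22 for the bright members and 0.53 for the other bright genes. Of those 5317 genes, 3649 had the same sign in both ratios. The correlation is given as a description, since genes of 1 array share its scaling and are not replicates.

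Promoters were found in the RefSeq table for 71 of the 86 members, on chromosomes that include those of the sequences above. The NRF-1 motif was present for 16 genes (22.5%), against 12.4% of bright genes and 5.19% of all genes with a promoter in the table. The ETS motif was present for 19 (26.8%, against 22.1% of bright genes), the YY1 motif (AANATGGCG) for 10 (14.1%, against 6.63%) and TATAAA for 6 (8.45%, against 10.1%). Outside chromosome 18, no match of 1 motif overlapped a match of another in the members' promoters. In CF + lubiprostone over CF control the median log2 ratio was -0.18 with the NRF-1 motif and -0.25 without it, and -0.27 with the ETS motif and -0.22 without it. For CF over WT with the drug it was -0.050 with the NRF-1 motif and -0.12 without it, and for the 6 members with TATAAA it was -0.21, against -0.074 for the 65 without. Between the control arrays, CF over WT, it was 0.14 for the 10 members with the YY1 motif and 0.21 for the 61 without. Atp5k and Cox6a1, whose promoters printed above hold both motifs, had log2 ratios of -0.58 and -0.16. A match is a description of letters and does not show that a factor binds.

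Other nuclear genes of the mitochondrion were examined to see whether they moved with the subunits. The mitochondrial ribosome, which translates the subunits encoded by mitochondrial DNA, had 65 of 76 genes higher in CF control against WT control (median log2 ratio 0.19) and 67 lower for the drug in CF (median -0.27). Of 19 genes for protein import and folding, 16 were lower for the drug in CF (median -0.28), and their median was 0.35 between the control arrays, CF over WT. Hspe1, the mitochondrial cochaperonin, picked out after its values were seen, had 2411 in CF + lubiprostone, 3815 in CF control, 2400 in WT + lubiprostone and 2677 in WT control. Of 16 genes of the citric acid cycle and pyruvate dehydrogenase, 14 were lower in the same comparison (median -0.19). The 12 carriers and pores had a median of -0.07 and the 11 assembly factors of complex IV one of -0.17, with 4 of the 11 higher.

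**Figure D4:**
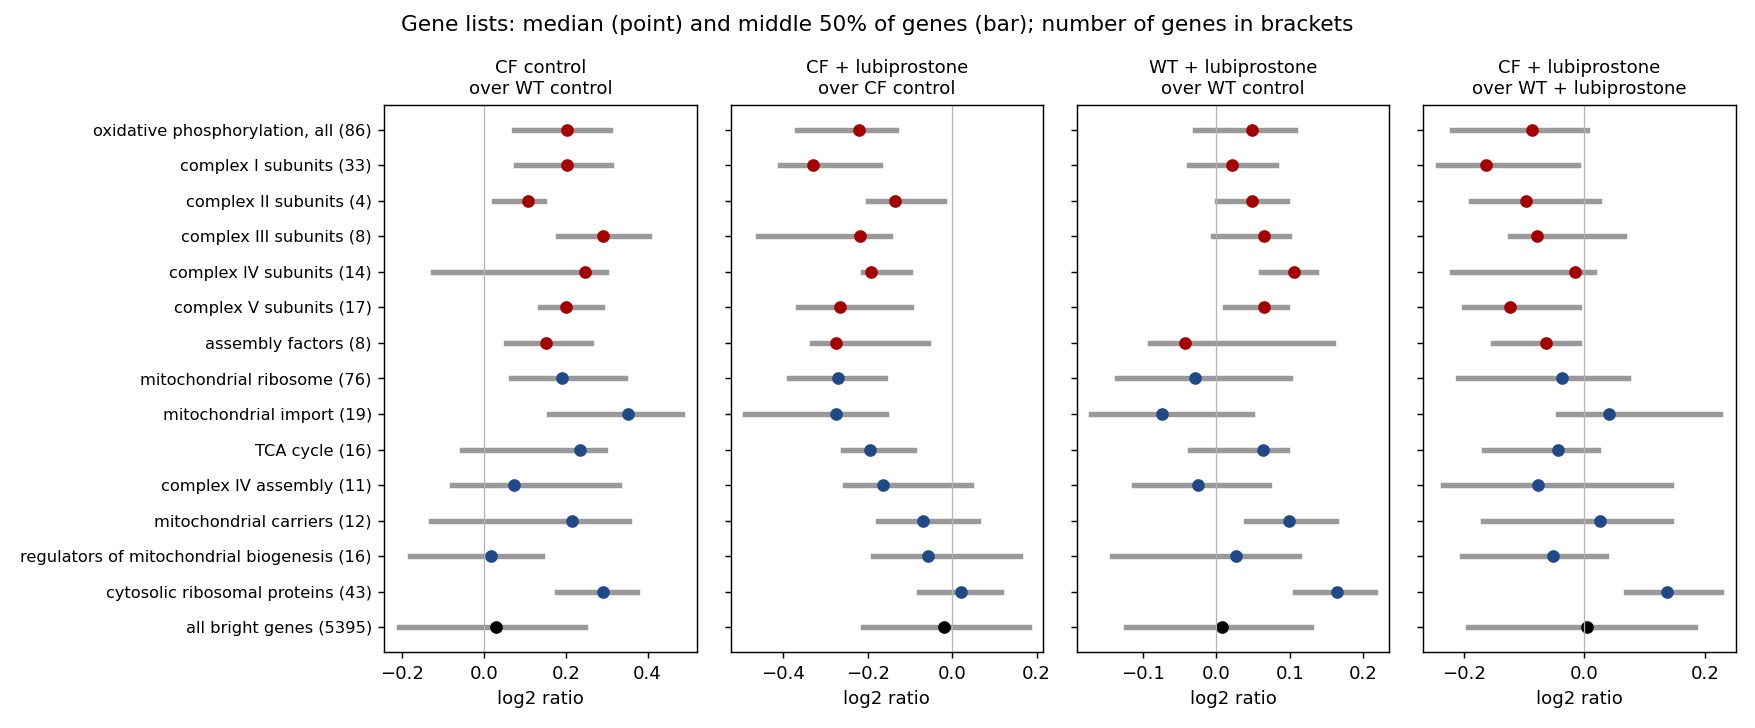
Median log2 ratio (points) and the range of the middle 50% of genes (bars) for oxidative phosphorylation genes and their complexes (red), other mitochondrial lists and cytosolic ribosomal proteins (blue) and all bright genes (black) in the 4 comparisons, with separate scales. In CF + lubiprostone over CF control the mitochondrial ribosome lies at -0.27, near the members at -0.22, while the cytosolic ribosomal proteins lie at 0.02.

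The 16 regulators of mitochondrial biogenesis had medians near 0. Their median log2 ratio was 0.02 between the control arrays, CF over WT, and -0.06 for the drug in CF. Ppargc1b, a coactivator of respiratory genes that like Ppargc1a was picked out after its values were seen, had 2409 in CF + lubiprostone, 2118 in CF control, 1405 in WT + lubiprostone and 1254 in WT control, and its relative Ppargc1a had 906 in CF + lubiprostone, 849 in CF control, 1121 in WT + lubiprostone and 1141 in WT control. The one was higher and the other lower on both CF arrays than on both WT arrays. Cytosolic ribosomal proteins, a bright list added after the data were seen, had a median of 0.29 between the control arrays, CF over WT, against 0.20 for the members. For the drug in CF the medians were 0.02 for these proteins and -0.22 for the members.

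Markers of other cell types moved between the same arrays, some up and some down. All 7 smooth muscle markers were lower for the drug in CF, and their summed signal was 16132 in CF + lubiprostone, 24869 in CF control, 17570.1 in WT + lubiprostone and 15471 in WT control, highest in CF control as for the members. The 4 markers of proliferating crypt cells were also lower, 4 of 4, with sums of 8646 in CF + lubiprostone, 11729.8 in CF control, 10190 in WT + lubiprostone and 11211 in WT control. The sums of 3 acinar pancreas markers were 2594 in CF + lubiprostone, 9966 in CF control, 1155 in WT + lubiprostone and 10846 in WT control, and of 3 mast cell markers 794 in CF + lubiprostone, 9676 in CF control, 268 in WT + lubiprostone and 459.9 in WT control. For the drug in CF 4 of 5 T cell markers and 2 of 3 markers of B and plasma cells were higher. T cell sums were 6852 in CF + lubiprostone, 5327 in CF control, 7685 in WT + lubiprostone and 8232 in WT control. B and plasma cell sums were 30052 in CF + lubiprostone, 24867 in CF control, 21398 in WT + lubiprostone and 21068 in WT control. Of 4 macrophage markers 3 were lower for the drug in CF. Brown fat was not seen, with Ucp1 and Cidea under the array medians. Of 5 skeletal and heart muscle markers only Acta1 and Ckm reached the medians. Over all 5 the sums were 372 in CF + lubiprostone, 634 in CF control, 672 in WT + lubiprostone and 485 in WT control. Epithelial marker sums were lower on both CF arrays than on both WT arrays. The part of these cell types in the oxidative phosphorylation values was not tested.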

How the data were processed

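RNA pooled from the mice of each group was hybridized by the authors to 1 array per group, and the deposited table holds intensity signals on a linear scale, which the submitters' processing notes credit to GCOS and MAS5 (versions not given in the sources used here). No detection calls were used. Gene names came from the platform annotation. Members and gene lists were chosen with earlier results of these data known. Probe sets listed for several genes did not enter counts of genes, and any other was used when it reached its array's median on 1 or more of the 4 arrays. A gene's log2 ratio is the mean over its probe sets, 4 comparisons were made, and folds of 1.5 and 3 were counted. Genes were named by rule: the 3 brightest of each complex, the 5 highest and 5 lowest ratios per comparison among bright genes whose probe sets moved in 1 direction, complex II, isoform pairs, and genes whose probe sets differed by over 2-fold; others are said to be picked out, or follow counts. With 1 array per group, their number limits precision and no test was run. The 9 alternatives were quantile normalization, a common array median, the filter dropped or raised to the 75th percentile, dim values raised to the median, the brightest probe set, summed signals, probe sets in place of genes and subunits only. Steps were tested on simulated data. Python 3.11, numpy 2.4.6, pandas 2.3.3 and matplotlib 3.10.9 were used.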

Additional observations from a re-analysis of the deposited data

Results flagged for a closer look

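Each result below had opposite signs in 2 contrasts of the same kind, and in none was the difference tested, since each group is 1 array. For lubiprostone against control, the median log2 ratio was -0.22 in CF and 0.049 in WT for all oxidative phosphorylation genes, -0.33 in CF and 0.021 in WT for complex I, -0.13 in CF and 0.049 in WT for complex II, -0.22 in CF and 0.065 in WT for complex III, -0.19 in CF and 0.11 in WT for complex IV, and -0.27 in CF and 0.065 in WT for complex V. The WT medians of all members and of complexes I to V turned negative after quantile normalization or centring on genes of like signal, or both.

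For CF against WT, the median log2 ratio was -0.087 with and 0.20 without lubiprostone for all oxidative phosphorylation genes, -0.16 with and 0.20 without lubiprostone for complex I, -0.097 with and 0.11 without lubiprostone for complex II, -0.078 with and 0.29 without lubiprostone for complex III, -0.016 with and 0.25 without lubiprostone for complex IV, -0.12 with and 0.20 without lubiprostone for complex V, and -0.063 with and 0.15 without lubiprostone for the assembly factors. These 2 contrasts share no array.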

How the results depend on the processing

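No paired analysis was possible because each group is 1 array, and leaving out a replicate could not be done for the same reason. Counts below are of oxidative phosphorylation genes, medians are log2 ratios, and the cause of a change was not tested unless the setting itself changes which probe sets enter.

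In CF control over WT control, scaling each array to the same median, which moved the median of all genes to 0.16, gave medians of 0.38 for all members, 0.38, 0.29, 0.47, 0.43 and 0.38 for complexes I to V and 0.33 for the assembly factors, with 8 genes lower, 8 higher by 1.5-fold and 1 lower by 1.5-fold. Quantile normalization moved the median of all genes to 0.037. It gave 0.10 for all members, 0.087 for complex IV and 0.067 for complex V, with 22 genes lower and 2 higher by 1.5-fold. Without a filter complex IV turned to -0.21, and 5 genes were lower by 1.5-fold. In this setting 3 dim genes enter, and so do dim probe sets of Cox5b, Cox6a2, Cox7c and Cox8a, which were lower in CF control. A filter at the 75th percentile left 9 genes lower and 1 lower by 1.5-fold, and the brightest probe set put 1 gene higher by 1.5-fold. Among probe sets 140 were higher, 23 lower, 3 higher by 1.5-fold and 5 lower by 1.5-fold. Centring on genes of like signal, chosen after seeing the data, gave 0.18, 0.063 and 0.10 for complexes III, IV and V, with 22 genes lower and 1 higher by 1.5-fold.

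In CF + lubiprostone over CF control no median changed sign. The same-median scaling, which moved all genes to -0.11, gave -0.35 for all members, -0.46, -0.26, -0.35, -0.32 and -0.39 for complexes I to V and -0.40 for the assembly factors, with 4 genes higher and 13 lower by 1.5-fold. Complex II was -0.32 with the brightest probe set, which also put 1 gene higher by 1.5-fold. Without a filter 14 genes were higher, 2 higher by 1.5-fold and 6 lower by 1.5-fold, and with a filter at the 75th percentile 3 were higher and 1 higher by 1.5-fold. Among probe sets 16 were higher, 147 lower, 5 higher by 1.5-fold and 11 lower by 1.5-fold.

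In WT + lubiprostone over WT control quantile normalization turned the medians to -0.017 for all members and to -0.039, -0.028, -0.00043 and -0.034 for complexes I, III, IV and V, with 48 genes lower. Centring on genes of like signal turned them to -0.028 for all members and to -0.057, -0.011, -0.039, -0.012 and -0.039 for complexes I to V, with 32 genes higher and 54 lower. Complex II was -0.0061 without a filter, and the assembly factors were 0.015 with the brightest probe set and among probe sets. The filter at the 75th percentile, dim values raised to the median and the brightest probe set each left 0 genes higher and 0 lower by 1.5-fold, and summed signals left 0 higher. Lower by 1.5-fold were 3 genes without a filter and 2 probe sets, and 111 probe sets were higher and 52 lower.

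In CF + lubiprostone over WT + lubiprostone complex IV turned to 0.020 under the same-median scaling. Higher by 1.5-fold were 2 genes without a filter, with the brightest probe set and with summed signals, 3 probe sets, and 0 genes after centring. Lower by 1.5-fold was 1 gene with the filter at the 75th percentile, and 2 with the brightest probe set, summed signals or dim values raised to the median. Among probe sets 48 were higher and 115 lower. The ratio of Atp5g2 turned to 0.028 with the filter at the 75th percentile or the brightest probe set and to 0.013 with summed signals, which drop or outweigh its dim probe set. Leaving out Cox7a1 and Ndufa10, or all genes that are not subunits, moved no median beyond the spread between probe sets.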
